A study of Mus musculus with 7 samples.

Results

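The ADAMTS and HTRA proteases of articular cartilage are represented here by 10 genes, chosen by name from the 52459 gene names of the deposited count table: Adamts1, Adamts2, Adamts4, Adamts5, Adamts6, Adamts9, Adamts12, Adamts15, Htra1 and Htra3. All 10 names were found in the table. The cells were primary mouse chondrocytes isolated from the femoral head and kept in serum-containing medium. Bulk RNA was sequenced after 24 h with BMP2 at 100 ng/ml (3 libraries, replicates 1, 2 and 3), with TGFβ1 at 5 ng/ml (2 libraries, replicates 1 and 3) or with vehicle (2 libraries, replicates 1 and 2). No genotype, strain or age is given in the sources used here, and nothing says whether replicates are separate animals or cultures, so the p-values speak only of the spread among these libraries, which could be technical.

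ADAMTS proteases are secreted zinc metalloproteinases. Several of them cut aggrecan, the large proteoglycan that gives cartilage its resistance to compression, and they are therefore called aggrecanases; in mice ADAMTS5 is the main aggrecanase of joint cartilage, while ADAMTS4 is known to respond to inflammatory cytokines. Other members trim procollagens or act on matrix glycoproteins. HTRA1 and HTRA3 are secreted serine proteases that degrade matrix proteins, and HTRA1 is abundant in osteoarthritic human cartilage. TGFβ1 and BMP2 belong to the same ligand family and signal mainly through different receptor-activated SMAD proteins.

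Total counts ranged from 6747997 to 10686885 in BMP2 libraries, from 16271793 to 18047765 in TGFβ1 libraries and from 6885056 to 7387051 in vehicle libraries. Levels are CPM, read counts scaled to TMM-adjusted library sizes, and 1 count was worth 0.0736 to 0.134 CPM. The words rose, fell and changed are kept for genes with an adjusted p under 0.05 in edgeR's quasi-likelihood test. Some libraries stood apart from others of their own group. The chi-square between replicates, per gene, was 14.4 and 18.5 for BMP2 replicate 1 against the other BMP2 libraries, beside 1.88 between those, 40.7 for the TGFβ1 pair and 4.75 for the vehicle pair. It was taken on raw counts and grows with depth for the same relative spread. The TGFβ1 libraries were the deepest, so pairs of different groups are not on a common scale. Genes named Rpl or Rps took 1.03% to 1.35% of counts with BMP2, 6.12% to 6.16% with TGFβ1 and 1.01% to 1.06% with vehicle. As readouts of the ligands, Smad7 rose with BMP2 by 2.32 and Pmepa1 with TGFβ1 by 5.03 on the log2 scale. Id1 passed with neither (adjusted p = 0.107 with BMP2 and 0.0531 with TGFβ1), while Id3 passed with TGFβ1 (1.17) and not with BMP2 (1.01). Id3 stood at 395 to 475 CPM with BMP2, at 695 and 263 CPM with TGFβ1 and at 212 and 214 CPM with vehicle, so its TGFβ1 value rests largely on replicate 1. All 7 fixed chondrocyte markers were tested, and their summed level was 40210 to 46800 CPM with BMP2, 31190 to 36900 CPM with TGFβ1 and 46200 to 46600 CPM with vehicle. Most of it was Col2a1, at 30950, 29570 and 35500 CPM on average in that order, which passed with neither ligand. With TGFβ1 5 of the 7 fell, beside 25.8% of all tested genes: Matn1 (−2.99), Hapln1 (−2.09), Col9a1 (−1.755), Sox9 (−1.40) and Acan (−0.88). With BMP2 Matn1 fell (−1.545) and Acan rose (0.64). The 6 fixed markers of fibrous cells (3 tested) summed to 553 to 694 CPM with BMP2, 1371 to 1588 CPM with TGFβ1 and 664 to 688 CPM with vehicle. Most of this sum was Col1a1, at 630, 1462 and 659 CPM on average in the same order. Col1a1 rose with TGFβ1 (1.15), while the other tested markers, Pdpn (0.58) and Pdgfra (−0.23), did not pass. The 5 endothelial markers (1 tested) summed to 1.37 to 1.86 CPM with BMP2, 0.441 to 0.458 CPM with TGFβ1 and 0.120 to 0.267 CPM with vehicle, with Cdh5 at 0 throughout. The tested one, Pecam1, passed the filter only through the BMP2 libraries. It was called higher with both ligands, on 12 to 16 counts with BMP2, 4 and 6 with TGFβ1 and 0 with vehicle. The other endothelial markers had at most 0.257 CPM in any library. The 7 leukocyte markers (4 tested) summed to 13.5 to 16.3 CPM with BMP2, 19.4 to 29.0 CPM with TGFβ1 and 19.7 to 28.4 CPM with vehicle, with Cd3e at 0 throughout. Most of this sum was Lyz2, at 10.5, 15.9 and 18.1 CPM on average in the same order. With TGFβ1 Cd68 rose (1.58) and Adgre1 fell (−1.67, on 8 and 4 counts beside 13 and 10 with vehicle). Lyz2 and Csf1r did not pass with TGFβ1, and with BMP2 none of the 4 passed. The 5 osteoclast markers (2 tested) summed to 101 to 141 CPM with BMP2, 121 to 125 CPM with TGFβ1 and 89.1 to 94.2 CPM with vehicle, with Calcr at 0 throughout. Most of this sum was Ctsk, at 115, 118 and 88.6 CPM on average. Ctsk rose with TGFβ1 (0.42, adjusted p = 0.0461), while Acp5 (0.65) did not pass, and with BMP2 neither passed. The 4 adipocyte markers (1 tested) summed to 8.58 to 17.9, 49.9 to 57.0 and 4.81 to 8.37 CPM in the same order of groups. Most of that sum was Fabp4, at 14.4, 52.8 and 6.41 CPM on average. Fabp4 rose with TGFβ1 (3.03, adjusted p = 2.84e-05) and did not pass with BMP2 (1.14, adjusted p = 0.0524). The other adipocyte markers had at most 0.840 CPM in any library. The 4 skeletal muscle markers (0 tested) summed to at most 1.20 CPM in any library, with Myh4 at 0 throughout. The part that other cells play in the changes given here was not tested, and in bulk RNA fewer cells of a type and less RNA per cell cannot be told apart.

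Levels of different genes were compared per length, as CPM per kilobase of the gene length in the deposited table. On that scale both HTRA genes were the most abundant of the 10 in each group. Htra1 averaged 26.9 ± 2.79 CPM per kilobase with BMP2 (SD, n = 3), 162 ± 11.3 with TGFβ1 (n = 2) and 43.5 ± 1.38 with vehicle (n = 2). Htra3 came next, at 18.8 ± 1.71, 89.0 ± 7.05 and 23.2 ± 0.891 CPM per kilobase in the same order. Among the ADAMTS genes of vehicle libraries the order was Adamts1 (5.70 ± 0.494 CPM per kilobase), Adamts2 (2.47 ± 0.443), Adamts9 (1.74 ± 0.184) and Adamts5 (1.31 ± 0.313), whose per-library ranges did not overlap between neighbours. Adamts12, Adamts6 and Adamts4 followed at 0.172, 0.162 and 0.135 CPM per kilobase. Adamts4 overlapped with both others. Adamts12 (0.1716 or more) and Adamts6 (0.1715 or less) nearly touched in single libraries, so the order of these genes is not resolved. Adamts15 was lowest at 0.0598 ± 0.0298 CPM per kilobase, overlapping with Adamts4. With TGFβ1 the order was Adamts2 (1.96 ± 0.199 CPM per kilobase) and Adamts1 (1.85 ± 0.0687), which overlapped, then Adamts6 (1.13), Adamts5 (0.705), Adamts4 (0.545), Adamts12 (0.434), Adamts9 (0.244) and Adamts15 (0.0509), with Adamts4 at 0.508 or more and Adamts12 at 0.502 or less in single libraries. With BMP2 Adamts1 (7.24 ± 0.704) was followed by Adamts9 (2.13), Adamts2 (1.81) and Adamts5 (0.659) without overlap, then by Adamts6 (0.179), Adamts12 (0.144) and Adamts4 (0.116), which overlapped, and by Adamts15 (0.0118), which overlapped with Adamts4. The exons annotated in GENCODE M21 are longer than the length in the table for Adamts5 (10791 against 8091 nt) and Adamts12 (10921 against 6234 nt). Principal transcripts can be much shorter than the length in the table, as for Adamts9 (8016 against 15048 nt) and Adamts2 (7266 against 9336 nt). The orders given here hold for the lengths in the table, and neighbours can change places with another length.

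**Figure D1:**
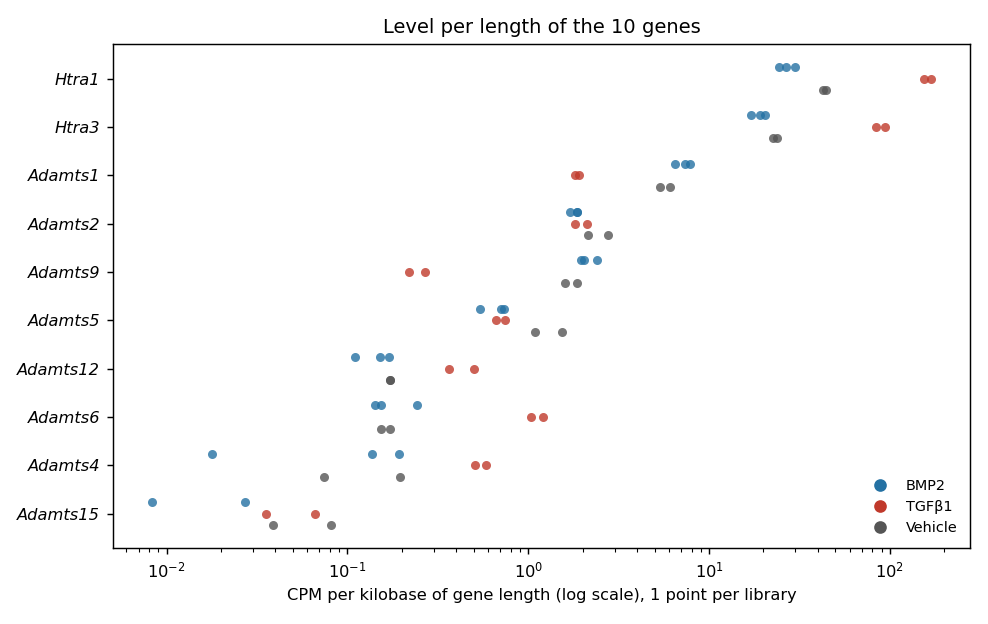
Level of each of the 10 genes in CPM per kilobase of gene length (log scale), 1 point per library, with BMP2 in blue, TGFβ1 in red and vehicle in grey. Htra1 and Htra3 lie above all ADAMTS genes in every library, and Adamts9 and Adamts6 change places between TGFβ1 and vehicle; the BMP2 library with 0 counts of Adamts15 is not drawn.

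With TGFβ1 the genes changed in both directions. Of the 9 genes with enough counts to be tested, 5 rose and 3 fell against vehicle, and Adamts2 did not pass the threshold. With TGFβ1 56.2% of all 13367 tested genes were called, with 30.4% higher and 25.8% lower, so being called is common in this comparison. The TGFβ1 libraries also carry the length difference described below, which cannot be told apart from the treatment. Adamts4 met the filter on low counts only through the TGFβ1 libraries and therefore had to be high there. With BMP2 2 of the 9 were called, both lower, where 11.5% of all tested genes were called, 5.33% higher and 6.15% lower. Without vehicle replicate 1 or 2 the BMP2 count was 1 of the 10 genes, and 671 or 557 of all genes, beside 1535 with both. Both comparisons share the vehicle libraries.

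**Figure D2:**
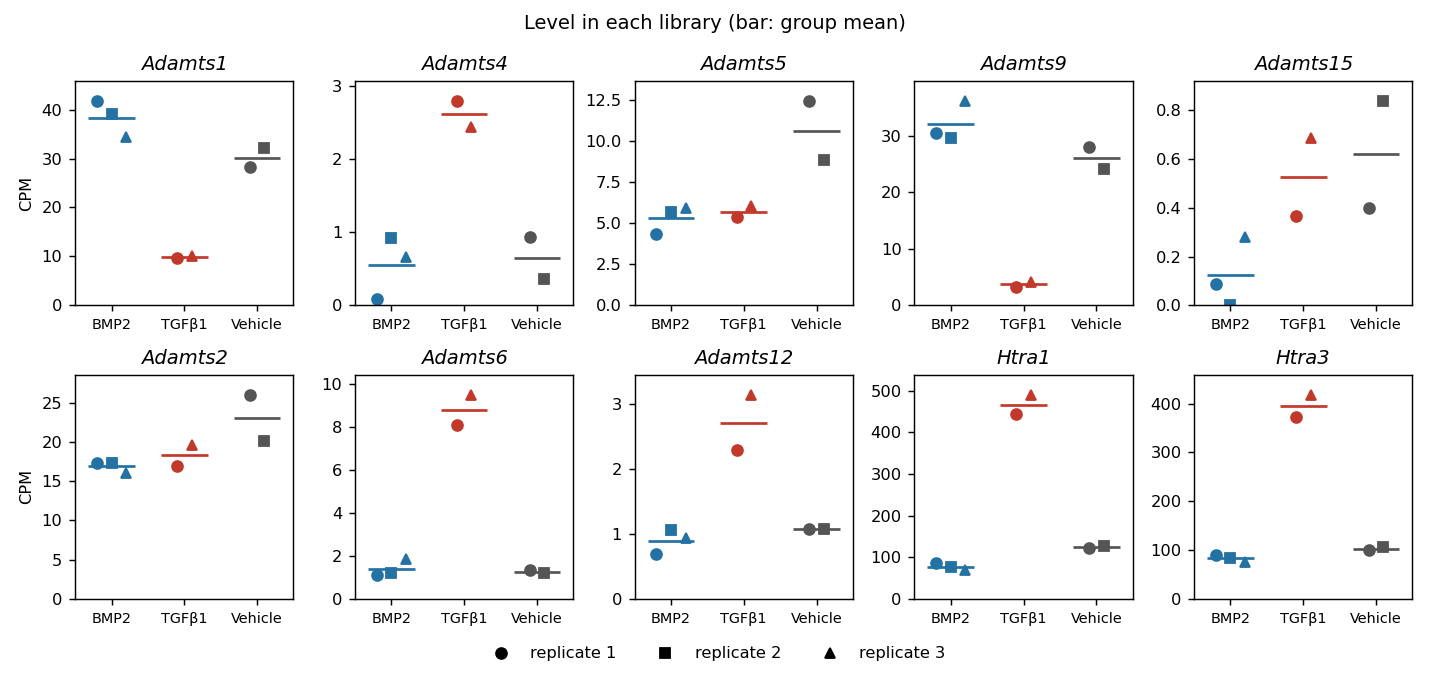
Level of each gene in CPM (y axes start at 0) in the BMP2, TGFβ1 and vehicle libraries, with 1 symbol per library and the group mean as a bar. The TGFβ1 libraries lie below all others for Adamts1 and Adamts9 and above all others for Adamts4, Adamts6, Adamts12, Htra1 and Htra3, while both vehicle libraries lie above all others for Adamts5 and Adamts2. Adamts4 met the filter only through the TGFβ1 libraries. With TGFβ1 56.2% of all tested genes were called, and the share of all genes that separate in these ways was not computed.

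RefSeq promoter windows (build GRCm38.p6, 250 bases before to 50 after the start of the gene) were at hand for 6 of the 10 genes. They were searched on both strands for CAGAC, a core bound by SMAD3 and SMAD4, for GGCGCC, a GC-rich element of BMP-responsive SMADs, and for TGANTCA, the AP-1 site. The windows of Adamts9 and Htra1 are shown because these genes are the one with the largest fall with TGFβ1 and the most abundant one that rose, with matches in capitals. Adamts9 (chr6:92943485-92943784, minus strand) holds 1 GGCGCC, and Htra1 (chr7:130935953-130936252, plus strand) holds no match.
Adamts9: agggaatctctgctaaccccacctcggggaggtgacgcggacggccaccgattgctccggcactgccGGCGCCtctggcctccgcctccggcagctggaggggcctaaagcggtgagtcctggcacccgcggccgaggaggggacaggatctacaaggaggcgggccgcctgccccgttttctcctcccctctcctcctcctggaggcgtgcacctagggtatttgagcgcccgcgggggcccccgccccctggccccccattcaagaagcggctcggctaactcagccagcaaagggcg
Htra1: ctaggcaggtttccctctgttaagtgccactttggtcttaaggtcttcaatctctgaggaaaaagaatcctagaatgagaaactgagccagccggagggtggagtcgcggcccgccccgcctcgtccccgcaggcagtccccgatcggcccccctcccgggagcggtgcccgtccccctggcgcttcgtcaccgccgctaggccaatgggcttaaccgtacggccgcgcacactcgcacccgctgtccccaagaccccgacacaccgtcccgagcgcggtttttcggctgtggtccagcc
The windows of Adamts1, Adamts12 and Htra3 hold none of these motifs, and that of Adamts2 holds 1 GGCGCC. Over all 32851 windows of this length, 49.6% hold CAGAC, 11.9% hold GGCGCC and 7.8% hold TGANTCA. A match describes letters in this window and is not a measured binding site.

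Among the genes whose products can cut aggrecan, Adamts1, which also cleaves versican, was the most abundant. It stood at 41.7, 39.1 and 34.3 CPM with BMP2, at 9.56 and 10.1 CPM with TGFβ1 and at 28.4 and 32.1 CPM with vehicle. TGFβ1 libraries were thus the lowest, with no overlap with either other group. Adamts1 (chromosome 16, 85793827 to 85803113, minus strand, mm10) fell with TGFβ1 by 1.62 on the log2 scale (SE 0.15, adjusted p = 7.42e-06). With BMP2 its fold change of 0.34 against vehicle (95% interval 0.06 to 0.63, adjusted p = 0.118) did not pass the threshold after adjustment over all genes.

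Adamts9, a versican- and aggrecan-cleaving protease of early development and vessels, showed the largest fall with TGFβ1 among the 10. It had 30.5, 29.6 and 36.1 CPM with BMP2, 3.31 and 4.05 CPM with TGFβ1, and 28.1 and 24.2 CPM with vehicle. Every BMP2 library lay above both vehicle libraries, and both TGFβ1 libraries lay far below them. The log2 fold change was −2.82 for TGFβ1 against vehicle (SE 0.18, adjusted p = 4.93e-07) and 0.30 for BMP2 against vehicle (95% interval −0.02 to 0.61, adjusted p = 0.221). Of the exon bases of Adamts9 (chromosome 6, 92772699 to 92943492, minus strand), 12.0% overlap genes on the other strand, A730049H05Rik and Gm15737, and the strand setting of the counting is not given. These neighbours had at most 0.658 and 0.598 CPM in any library.

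Of the 9 tested genes only Adamts5 was called lower with both ligands. Of all tested genes 6.15% were called lower with BMP2 and 25.8% with TGFβ1. Both comparisons share the vehicle libraries, and the share of all genes called lower with both was not computed. It had 4.38, 5.70 and 5.93 CPM with BMP2, 5.37 and 6.03 CPM with TGFβ1, and 12.4 and 8.85 CPM with vehicle. The treated libraries all lay below both vehicle libraries, which differed from each other more than the treated libraries did. Adamts5 (chromosome 16, 85856173 to 85901828, minus strand) lies near Adamts1 on the same chromosome and strand. The log2 fold change was −1.0 with BMP2 (SE 0.22, adjusted p = 0.0135) and −0.89 with TGFβ1 (SE 0.23, adjusted p = 0.00687). Both falls rest on vehicle replicate 1: without it the values were −0.74 for BMP2 (adjusted p = 0.165) and −0.68 for TGFβ1 (adjusted p = 0.0664). The TGFβ1 call was also lost with an offset for length and GC content (−0.52) and with one for principal transcript length (−0.33).

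Adamts4 was scarce outside the TGFβ1 libraries. Its level was 0.0858, 0.928 and 0.658 CPM with BMP2 (1, 7 and 7 counts), 2.80 and 2.44 CPM with TGFβ1 (38 and 32 counts), and 0.936 and 0.359 CPM with vehicle (7 and 3 counts). Both TGFβ1 libraries lay above all others. Adamts4 (chromosome 1, 171250421 to 171260637, plus strand) rose with TGFβ1 by 2.03 (SE 0.63, adjusted p = 0.0181); without vehicle replicate 2 the value was 1.47 (adjusted p = 0.149), and without TGFβ1 replicate 1 it was 1.93 (adjusted p = 0.0709). With BMP2 the interval of its fold change ran from −2.03 to 1.42, so neither a rise nor a fall was resolved.

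Adamts15 (chromosome 9, 30899155 to 30922452, minus strand), another versican-cleaving member, did not pass the filter in any group and was not tested. Its 4 counts over the BMP2 libraries gave 0.134 CPM (95% exact Poisson interval 0.0365 to 0.343), its 14 counts over the TGFβ1 libraries 0.524 CPM (0.287 to 0.880), and its 10 counts over the vehicle libraries 0.631 CPM (0.303 to 1.16). These intervals cover counting error only. A difference between TGFβ1 and vehicle was not detectable at this depth. One BMP2 library had 0 counts, which allows up to 0.398 CPM when 3 counts are taken as the limit.

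Summed per kilobase, the 5 genes Adamts1, Adamts4, Adamts5, Adamts9 and Adamts15 came to 9.77 to 10.5 CPM per kilobase with BMP2, 3.30 to 3.49 with TGFβ1 and 8.90 to 8.98 with vehicle. The share of Adamts1 in this sum was 66.3% to 75.2% with BMP2, 54.5% to 54.6% with TGFβ1 and 59.5% to 67.9% with vehicle. Adamts5 took 5.17% to 7.50%, 20.1% to 21.4% and 12.3% to 17.1% in the same order, and Adamts4 0.171% to 1.88%, 14.6% to 17.6% and 0.838% to 2.17%. The sum with TGFβ1 was therefore lower and held a larger share of Adamts4 and Adamts5 than the sum in any other library. These shares describe RNA levels of the named genes and carry no test. Sums and shares depend on the lengths in the table, 15048 nt for Adamts9 and 8091 nt for Adamts5, whose principal transcripts have 8016 and 10791 nt. The TGFβ1 values also carry the length difference described below, with a median log2 fold change of −0.49 above 10000 nt.

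Of the ADAMTS genes that are not aggrecanases, Adamts6 and Adamts12 rose with TGFβ1. Adamts6, which in mice is needed for heart development and is a close relative of Adamts10, had 1.12, 1.19 and 1.88 CPM with BMP2, 8.09 and 9.47 CPM with TGFβ1, and 1.34 and 1.20 CPM with vehicle. The TGFβ1 libraries lay above all others, and the BMP2 and vehicle libraries overlapped. Adamts6 (chromosome 13, 104287835 to 104496695, plus strand) rose by 2.78 with TGFβ1 (SE 0.31, adjusted p = 2.97e-05), and its fold change with BMP2 was 0.15 (95% interval −0.68 to 0.98).

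Adamts12, whose product cleaves the cartilage protein COMP, had 0.686, 1.06 and 0.940 CPM with BMP2, 2.28 and 3.13 CPM with TGFβ1, and 1.07 and 1.08 CPM with vehicle. The TGFβ1 libraries lay above all others, and the BMP2 libraries lay just below the vehicle libraries, on 8 to 10 counts with BMP2 and 8 to 9 with vehicle. Adamts12 (chromosome 15, 11064790 to 11349231, plus strand) rose with TGFβ1 by 1.32 (SE 0.38, adjusted p = 0.0132), on 31 and 41 counts with TGFβ1 and 8 and 9 counts with vehicle. The call was lost without TGFβ1 replicate 3 (1.08), without vehicle replicate 1 (1.27), without vehicle replicate 2 (1.32) and in DESeq2 (1.33), with adjusted p of 0.0653 to 0.0920. Its fold change with BMP2 was −0.29, with an interval from −1.24 to 0.67.

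Adamts2, which removes the N-propeptide of fibrillar procollagens, had 17.3, 17.4 and 15.99 CPM with BMP2, 17.0 and 19.6 CPM with TGFβ1, and 25.9 and 20.1 CPM with vehicle. The log2 fold change of Adamts2 (chromosome 11, 50602084 to 50807573, plus strand) was −0.44 with BMP2 (95% interval −0.77 to −0.12, adjusted p = 0.0827) and −0.33 with TGFβ1 (95% interval −0.68 to 0.02, adjusted p = 0.100). Neither passed, although every treated library lay below both vehicle libraries. For TGFβ1 the call appeared without vehicle replicate 2, at −0.51 (adjusted p = 0.0462).

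Htra1 and Htra3 both rose with TGFβ1, while Htra2, a mitochondrial relative outside the 10, had a fold change of −0.21 and did not pass (adjusted p = 0.314); 43.7% of its exon bases overlap genes on the other strand. Htra1 (chromosome 7, 130936111 to 130985660, plus strand) had 86.0, 76.4 and 70.1 CPM with BMP2, 443 and 489 CPM with TGFβ1, and 122 and 128 CPM with vehicle. The 3 groups did not overlap, with TGFβ1 highest and BMP2 lowest. Htra1 rose with TGFβ1 by 1.90 on the log2 scale, a 3.72-fold difference (SE 0.14, adjusted p = 1.38e-06), and fell with BMP2 by 0.69 (SE 0.12, adjusted p = 0.00542). Without vehicle replicate 2 the BMP2 value was −0.66 (adjusted p = 0.0775). Reads of Htra1 made up 29.0% to 31.6% of the counts of the 10 genes with BMP2, 50.8% to 51.2% with TGFβ1 and 38.2% to 39.7% with vehicle.

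Htra3 (chromosome 5, 35652023 to 35679782, minus strand) had 90.4, 84.8 and 75.4 CPM with BMP2, 373 and 417 CPM with TGFβ1, and 100 and 106 CPM with vehicle. The TGFβ1 libraries lay far above the rest. Its rise with TGFβ1 was 1.94 (SE 0.14, adjusted p = 9.77e-07), a 3.84-fold difference. With BMP2 its fold change of −0.30 (95% interval −0.57 to −0.03, adjusted p = 0.157) did not pass, although all BMP2 libraries lay below both vehicle libraries. None of the exon bases of Htra1 and Htra3 overlap another annotated gene.

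**Figure D3:**
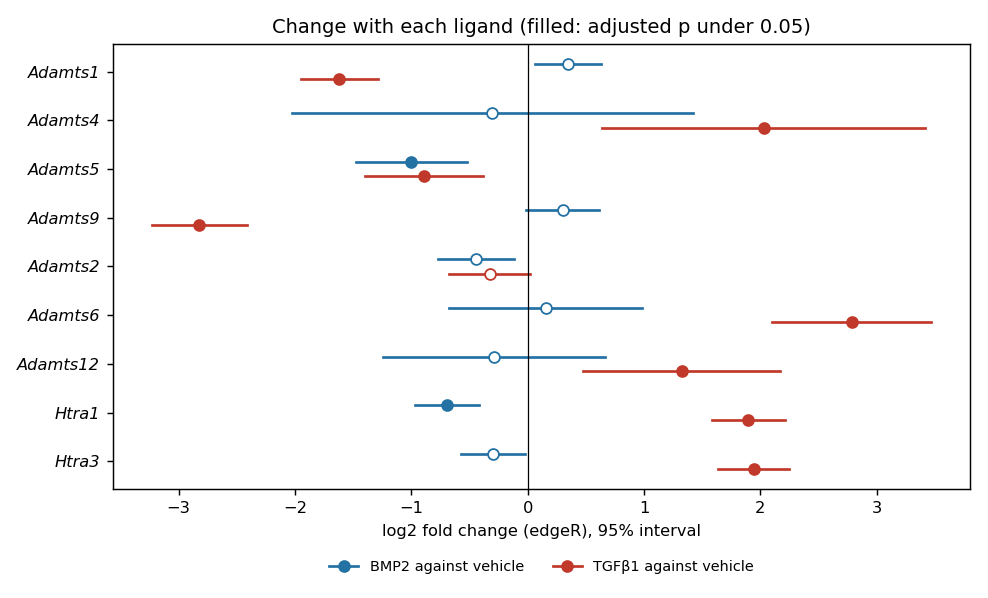
Log2 fold change of the 9 tested genes for BMP2 against vehicle (blue) and TGFβ1 against vehicle (red), with 95% intervals from edgeR; filled points passed an adjusted p of 0.05. TGFβ1 shows 5 rises and 3 falls, BMP2 the falls of Adamts5 and Htra1.

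Setting the ligands directly against each other, BMP2 against TGFβ1, 7 of the 9 tested genes differed, 2 higher and 5 lower, beside 61.4% of all tested genes, 28.1% higher and 33.3% lower. Higher with BMP2 were Adamts9 (3.12, SE 0.17, adjusted p = 9.13e-08) and Adamts1 (1.96, SE 0.14, adjusted p = 6.50e-07). Lower with BMP2 were Adamts6 (−2.63), Htra1 (−2.59), Adamts4 (−2.33), Htra3 (−2.24) and Adamts12 (−1.61), with adjusted p of 3.36e-08 to 0.00342. The ligands were not shown to differ for Adamts5 (−0.11, 95% interval −0.59 to 0.38) or Adamts2 (−0.12, 95% interval −0.44 to 0.20). Both were called lower with BMP2 under an offset for principal transcript length (−0.57 and −0.47). The doses differ, so these values compare the conditions used and not equal amounts of ligand.

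Gene length moved with every comparison that involves TGFβ1. Over all tested genes, TGFβ1 against vehicle gave a median log2 fold change of 2.67 in the 738 genes of at most 1000 nt, 0.22 in those above 2000 and up to 3000 nt, −0.25 in those above 6000 and up to 8000 nt and −0.49 above 10000 nt. For BMP2 against vehicle the medians of the length groups lay between −0.08 and 0.04. The ADAMTS genes are long: the deposited table gives 4810 nt for Adamts4, 5302 for Adamts1, 8091 for Adamts5 and 15048 for Adamts9, beside 2879 for Htra1 and 4439 for Htra3. With a per-library offset for gene length the TGFβ1 values were −2.32 for Adamts9, −1.55 for Adamts1, 1.72 for Htra1, 1.94 for Htra3 and 3.02 for Adamts6, all still called. Adamts5 is the exception. Its value was −0.65 with the length offset (adjusted p = 0.0293), −0.52 with length and GC content (adjusted p = 0.0646) and −0.33 with the principal transcript length (adjusted p = 0.208). The treatment and the length difference coincide in these libraries and cannot be told apart.

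**Figure D4:**
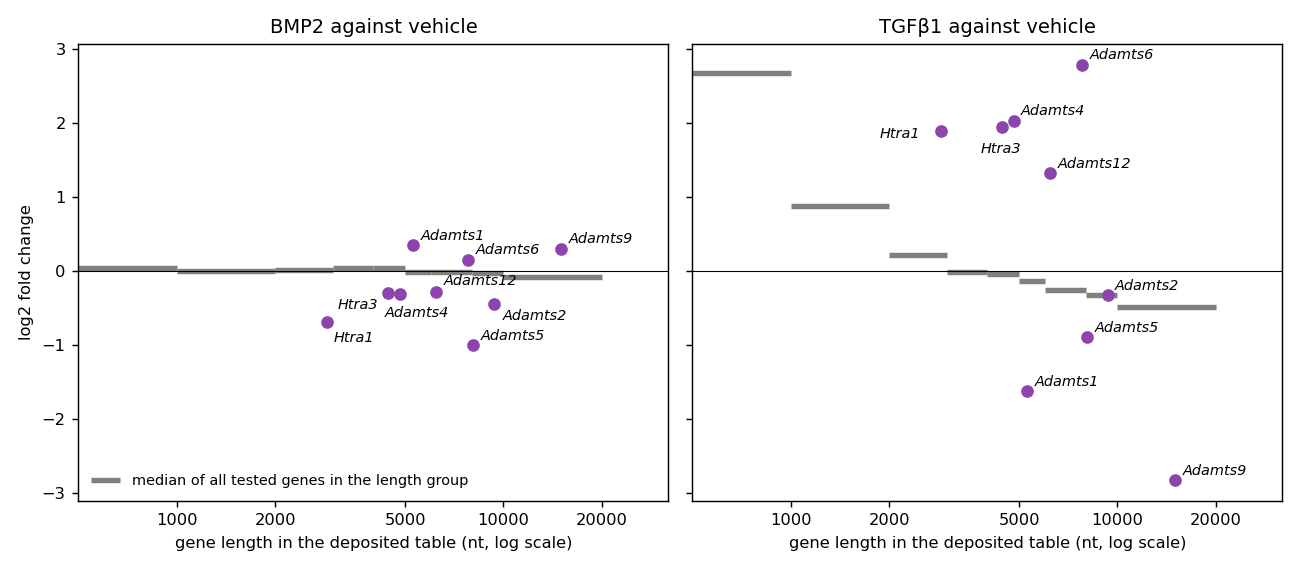
Log2 fold change of the 9 tested genes against gene length (log scale) for BMP2 and for TGFβ1 against vehicle; grey bars are medians of all tested genes in a length group; the open-ended shortest and longest groups are drawn with an arbitrary outer limit. The TGFβ1 medians slope from 2.67 in the shortest to −0.49 in the longest genes, Adamts2 lies on them, and Adamts5 lies between them and the other genes that fell.

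**Figure D5:**
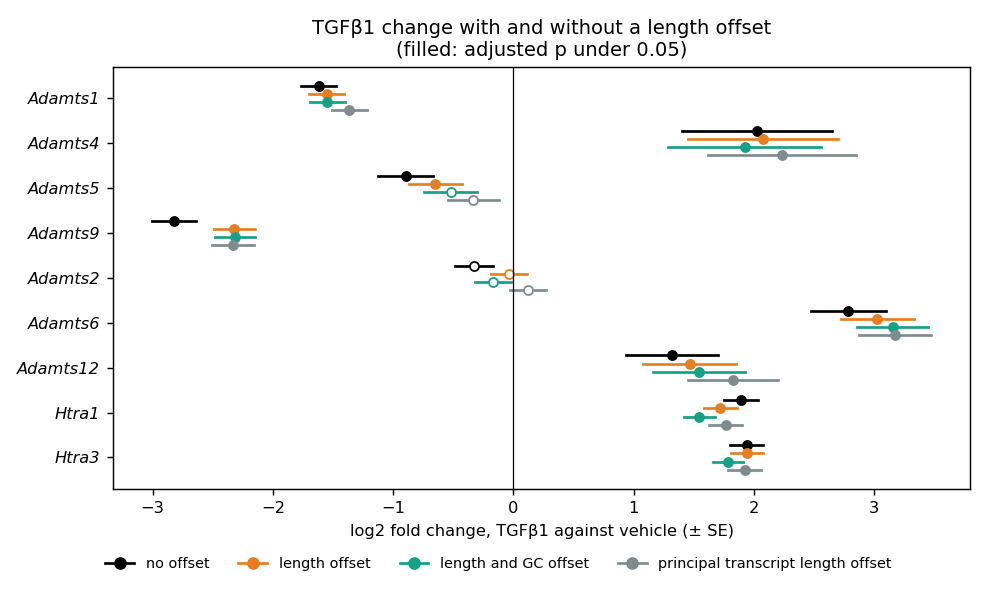
Log2 fold change of TGFβ1 against vehicle (± SE) for the 9 tested genes with no offset and with 3 offsets for gene length or GC content; filled points passed an adjusted p of 0.05. Of the 8 genes called without an offset, 7 remain filled under all 3, and Adamts5 does not.

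Of the 13 other ADAMTS and HTRA genes, 7 had enough counts to be tested. Over all tested genes 56.2% were called with TGFβ1, 11.5% with BMP2 and 61.4% for BMP2 against TGFβ1. With TGFβ1 4 rose and 1 fell, with a median log2 fold change of 0.87 beside −0.02 over all tested genes; Adamts16 and Htra4 passed the filter only through the TGFβ1 libraries. With BMP2 0 of the 7 passed, with a median of 0.03 beside 0 over all tested genes; DESeq2 also called 0. Adamts10 had a BMP2 fold change of −0.84 (adjusted p = 0.0629), and it passed when BMP2 replicate 1 was left out (−1.07) and with no filter (−0.82). At an unadjusted p under 0.05, 2 of the 7 passed, Adamts10 and Htra4 (−1.75, adjusted p = 0.146), and Adamts3 had a fold change of 0.40. Against TGFβ1, 1 of the 7 was higher with BMP2 and 4 were lower.

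Adamts16 was listed at 0 counts in both vehicle libraries and at 6.03 and 4.05 CPM with TGFβ1, at least 26.6-fold higher when the vehicle group is set to 3 counts. Htra4, a relative of Htra1, averaged 0.240 ± 0.0596 CPM with BMP2, 9.85 ± 2.91 with TGFβ1 and 0.799 ± 0.562 with vehicle, and rose with TGFβ1 by 3.57 (SE 0.41); 33.0% of its exon bases overlap a gene on the other strand. Adamts17 rose by 2.08 and Adamts10, linked to fibrillin microfibrils, by 0.87. Adamts10 missed the threshold without vehicle replicate 2 (0.63) or TGFβ1 replicate 1 (0.74). Adamts14, a procollagen N-propeptidase like Adamts2, fell with TGFβ1 by 1.48 (SE 0.34). It averaged 4.64 ± 0.581 CPM with BMP2, 1.61 ± 0.0954 with TGFβ1 and 4.56 ± 1.88 with vehicle.

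ADAMTS-like genes encode related matrix proteins with no protease domain. Of 6, 5 were tested, and with TGFβ1 4 rose and 1 fell (median 1.96), where 56.2% of all tested genes were called. Adamtsl2, which binds fibrillin and latent TGFβ binding proteins, averaged 0.531 ± 0.301 CPM with BMP2, 145 ± 14.1 with TGFβ1 and 0.901 ± 0.428 with vehicle, while Adamtsl3 fell by 1.90 (SE 0.13). Adamtsl1, at 3.37, and Adamtsl5, at 1.96, were among those that rose; Adamtsl1 and Adamtsl2 passed the filter only through the TGFβ1 libraries. With BMP2 Adamtsl3 rose by 0.52 (SE 0.11, adjusted p = 0.0105), a call lost when vehicle replicate 1 (0.50) or 2 (0.55) was left out. Against TGFβ1, 1 of the 5 was higher with BMP2 and 4 were lower, beside 61.4% of all tested genes called. Adamtsl4 had a fold change of −0.39 with BMP2 (adjusted p = 0.135).

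Among 13 inhibitors and handling genes 12 were tested. With TGFβ1 6 rose and 4 fell (median 0.30), and with BMP2 1 fell (median −0.02), beside 56.2% and 11.5% of all tested genes called. Between BMP2 and TGFβ1, 3 were higher and 6 lower with BMP2, where 61.4% of all tested genes were called. Timp3, the main tissue inhibitor of aggrecanases, had 2487, 3349 and 3051 CPM with BMP2, 3148 and 2971 CPM with TGFβ1, and 5185 and 2975 CPM with vehicle. Its groups overlapped and its fold changes of −0.46 with BMP2 and −0.42 with TGFβ1 did not pass (adjusted p = 0.205 and 0.153); with no filter on low counts the BMP2 value of −0.45 passed (adjusted p = 0.00443). Timp2 fell with BMP2 by 1.09 (SE 0.11, adjusted p = 0.000214) and with TGFβ1 by 0.79 (SE 0.13, adjusted p = 0.000416). Pofut2, which adds the O-fucose to ADAMTS repeats, and Lrp1, a receptor that takes up ADAMTS4 and ADAMTS5, had BMP2 fold changes of 0.30 and −0.17 and did not pass. Timp1, an inhibitor of matrix metalloproteinases, rose with TGFβ1 by 4.20, and by 1.99 with the length offset. Pcsk5, a proprotein convertase, rose with TGFβ1 by 4.30 (SE 0.17), while its relative Pcsk6 fell by 1.62 (SE 0.14) and B3glct, which adds glucose to the O-fucose of ADAMTS repeats, by 1.49 (SE 0.15).

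All 17 matrix substrate genes were tested. With TGFβ1 8 rose and 3 fell (median 0.11), and with BMP2 4 rose and 3 fell (median 0.13), beside 56.2% and 11.5% of all tested genes called. Between BMP2 and TGFβ1, 6 were higher and 8 lower with BMP2, where 61.4% of all tested genes were called. Acan, which encodes aggrecan, averaged 5375 ± 216 CPM with BMP2, 1880 ± 124 with TGFβ1 and 3456 ± 175 with vehicle. It fell with TGFβ1 by 0.88 (SE 0.13, adjusted p = 0.000218) and rose with BMP2 by 0.64 (SE 0.12, adjusted p = 0.00656). The BMP2 call was lost when vehicle replicate 1 (0.69) or 2 (0.59) was left out. Vcan, the gene of versican, rose with TGFβ1 by 3.24 (SE 0.18). Its averages were 6.18 ± 0.616 CPM with BMP2, 36.4 ± 0.0502 with TGFβ1 and 3.82 ± 0.681 with vehicle. Hapln1, the link protein that anchors aggrecan to hyaluronan, fell with TGFβ1 by 2.09 and Matn3 by 1.53, while Col3a1 rose by 1.35. With BMP2 Dcn fell by 1.35 (SE 0.12) and Fbn1 by 0.55, and Bcan rose by 1.61. The calls of Fbn1 and Bcan were lost when vehicle replicate 1 (−0.50 and 1.63) or 2 (−0.58 and 1.60) was left out. Of the 7 substrate genes called with BMP2, 1 passed when either vehicle library was left out, and 3 when BMP2 replicate 2 or 3 was.

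The genes whose profile over the 7 libraries lay nearest to that of Adamts5, by the distance between centred log2 CPM among 9556 candidates, were Kat6b (0.312), Amot (0.332), Oplah (0.337), Tcf4 (0.337) and Dcaf12l1 (0.350). Kat6b, for example, averaged 19.1 CPM with BMP2, 17.7 with TGFβ1 and 34.2 with vehicle. Nearest to Htra1 were Pstpip1 (0.316), Ntrk2 (0.318), Bmp7 (0.354), Tmem9 (0.400) and Cilp2 (0.409). Ntrk2 averaged 7.91 CPM with BMP2, 48.8 with TGFβ1 and 11.5 with vehicle. These distances describe profiles that share the same libraries.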

How the data were processed

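Bulk RNA of 7 libraries was analysed from the deposited table of whole-number counts per gene name, with a gene length deposited by the authors. The submitters' processing notes list mm10 as the build and name DESeq2, featureCounts, Subread, STAR (2.4.2a) and cutadapt; which annotation, strand or multi-mapping setting was used is not stated in the labels or headers. The deposited counts had not been normalised.

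The test was run in R 4.3.3 with edgeR 4.0.16: filterByExpr by group (13367 genes kept), TMM scaling, and 1 quasi-likelihood fit over all 7 libraries (4 residual degrees of freedom), 2-sided, at a threshold of 0.05 after adjusting p by Benjamini-Hochberg across the tested genes. CPM use TMM-scaled library sizes; SE and 95% intervals come from the fit. Alternatives were DESeq2 1.42.0, its size factors in edgeR, no filter, only the compared groups, a replicate block, offsets for gene length and GC content (lowess spans 0.15 and 0.3), and each library left out; the offset on principal transcript length (GENCODE M21) was added after seeing the data. The scripts were tested on simulated data. Positions and exon overlaps are from GENCODE M21.

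The 10 genes, the other lists and the rule for named genes were chosen with earlier results of these data known. The rule takes the 10 genes; from each list up to 4 tested genes with the smallest p per comparison, and any other ADAMTS or HTRA gene past the threshold; the 5 nearest profiles to Adamts5 and Htra1 (named symbols, mean log2 CPM of at least 2); and readouts of the ligands; items of this rule that are withheld are not reported here. Values in the text are given for part of the comparisons of these genes. Acan, Timp2 and Timp3 with TGFβ1, the calls of leukocyte, osteoclast and adipocyte markers, and the genes overlapping Adamts9 were added after their values were seen.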

Additional observations from a re-analysis of the deposited data

How the results depend on the processing

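The number of the 9 tested genes that passed ranged over the alternatives from 6 to 8 for TGFβ1 against vehicle (8 as reported) and from 7 to 9 for BMP2 against TGFβ1 (7 as reported). For BMP2 against vehicle the count of 2 was 1 with the replicate block, and 1 to 2 when single libraries were left out (1 without vehicle replicate 1, and 1 without vehicle replicate 2). Over all genes the BMP2 count of 1535 was 771 with the replicate block and 557 to 1698 when single libraries were left out, with 981 without BMP2 replicate 3, 671 without vehicle replicate 1 and 557 without vehicle replicate 2. Of the values of the 10 genes that did not pass as reported, these changed sign: Adamts2 with TGFβ1 to 0.12 with the offset on principal transcript length; Adamts4 with BMP2 to 0.28 without BMP2 replicate 1 and 0.50 without vehicle replicate 1 (range −0.85 to 0.50 over left-out libraries); Adamts6 with BMP2 to −0.030 with the replicate block and −0.14 without BMP2 replicate 3 (range −0.14 to 0.32); and Adamts5 for BMP2 against TGFβ1 to 0.032 without BMP2 replicate 1 (range −0.20 to 0.032). With the offset on principal transcript length, BMP2 against TGFβ1 also passed for Adamts5 (−0.57) and Adamts2 (−0.47), and for Adamts2 with the length offset (−0.35). The replicate block ended the calls of Adamts4 and Adamts12 with TGFβ1 (2.12 and 1.29; adjusted p = 0.0723 and 0.0663) and of Htra1 with BMP2 (−0.68, adjusted p = 0.0570). With BMP2 it also left 1 of 7 calls among the matrix substrates, with Acan (adjusted p = 0.0633), Fbn1 (0.0641) and Bcan (0.0555) lost, and 0 of 1 among the ADAMTS-like genes. Same-numbered libraries did not deviate together (correlations of −0.152 to −0.00366 over genes), so the numbers were not taken to pair samples. With only BMP2 and vehicle in the fit, Adamts4 and Adamts12 did not pass the filter and gave no value. The cause of these changes was not tested. A library left out of a group of 2 leaves 1 library, assumed to vary like the other groups. Adamts4, Adamts12 and Adamts15 rest on at most 41 counts per library.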
